A study of Mus musculus with 10 samples.

Results

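The genes described here encode the MHC class II antigen presentation machinery of the mouse and its master regulator. They are Ciita, Cd74, the classical chains H2-Aa, H2-Ab1 and H2-Eb1, the H2-M genes H2-DMa, H2-DMb1 and H2-DMb2, and the H2-O genes H2-Oa and H2-Ob. They were chosen by name, by a rule that uses no measured value but was set with earlier results of these data known, and all 10 of the 10 names were found among the 55494 genes with transcripts in the deposited files. For each library the estimated reads of a gene's transcripts were summed and scaled to the library's total over genes, which gives CPM, the usual unit for read counts on a common library size.

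Bulk RNA sequencing was done on leukemia initiating cells that had been isolated from spleens by cell sorting. All 10 pups carried the RFP/RET fusion transgene on the Eµ-Ret background, in which an immunoglobulin heavy chain enhancer drives the transgene in B lineage cells, and no animals without the transgene were compared. The labels give an age of 13 days and a time of 7 days after treatment for both groups, the control pups having received 50 µl of PBS and the treated pups 20 µg of Poly(A:U). Poly(A:U) is a synthetic double-stranded RNA that engages Toll-like receptor 3. Each group had 5 pups according to the design text. The spread between libraries thus holds that between animals, together with any difference in sorting or handling. The strain is not given in the sources used here, and the markers used for the sort were not given either.

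Class II molecules are dimers of an alpha and a beta chain that carry peptides from the endosomal route to the cell surface for CD4+ T cells. Cd74, the invariant chain, occupies the groove during transport, H2-M exchanges its remnant for peptide, and H2-O restrains H2-M. Ciita binds no DNA itself and acts as a coactivator on a promoter module in which an X box, bound by the RFX complex, lies upstream of a Y box, bound by NF-Y. In the B lineage, class II increases as precursors mature, and H2-O is largely a B cell product.

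The promoters are shown first because Ciita acts through this module, which was sought in the genes that had a promoter entry. The RefSeq promoter table (build GRCm38.p6) had entries for 7 of the 10 genes; Ciita, Cd74 and H2-Ab1 had none. Each entry runs from 250 bases before to 50 bases after a start site. The letters GATTGG (Y) and GCAAC (X) were searched on both strands, and the motifs do not overlap where they are capitalised below. Counting a match on either strand, 16.1% of all 32851 promoters held GATTGG and 35.2% held GCAAC. By the same count, 0.365% held GCAAC starting 20 to 40 bases before GATTGG. For the genes described here, the spacing was counted on the gene's strand only. It was present in 4 of the 7 genes, namely H2-Oa, H2-Ob, H2-Aa and H2-Eb1, with 32, 29, 32 and 31 bases between the motif starts. H2-DMb2 and H2-DMb1 held GATTGG without GCAAC at that distance, as did the second of the 2 entries of H2-DMa. The windows below run 5′ to 3′ on the gene's strand, with GATTGG and the spaced GCAAC in capitals, and they lie at chr17:34287857-34287932 (minus strand, H2-Aa), chr17:34305747-34305822 (plus, H2-Eb1), chr17:34238787-34238862 (plus, H2-Ob) and chr17:34145098-34145173 (plus, H2-DMb2).
H2-Aa: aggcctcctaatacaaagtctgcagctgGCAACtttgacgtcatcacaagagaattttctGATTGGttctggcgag
H2-Eb1: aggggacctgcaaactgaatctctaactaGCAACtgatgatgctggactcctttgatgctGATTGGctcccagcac
H2-Ob: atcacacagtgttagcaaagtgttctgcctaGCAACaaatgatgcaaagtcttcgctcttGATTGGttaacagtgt
H2-DMb2: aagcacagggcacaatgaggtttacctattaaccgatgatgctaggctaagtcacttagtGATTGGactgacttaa
GATTGG began 49, 60, 58 and 91 bases before the start site in these windows. A match is a description of letters in a window. H2-Ob and H2-Oa carried the same pair as H2-Aa and H2-Eb1, whose levels spanned a wider range between libraries, as given with each gene.

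Library totals lay between 17859006 and 22587871 estimated reads over 142333 transcripts. Markers of the labelled cells were abundant: 12 fixed genes, among them Cd79a, Vpreb1 and Rag1, summed to between 9046 and 14327 CPM in PBS and between 10955 and 12974 CPM in Poly(A:U) libraries. Of the PBS libraries, 3 (PBS 1 to PBS 3) share the start of their library names and no treated library has it. PBS 4 shares a name part with Poly(A:U) 5, PBS 5 with Poly(A:U) 1, and Poly(A:U) 3 with Poly(A:U) 4. The sources used here do not say what these name parts stand for.

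Between genes, levels were compared per transcript length, in TPM, the unit that also divides by effective length, over all 10 libraries. Cd74 had the highest mean level, 156 ± 79.0 TPM (SD, n = 10), followed by H2-Ab1 with 108 ± 22.3 TPM and H2-Ob with 72.8 ± 13.4 TPM. H2-Aa followed with 53.1 ± 32.3 TPM and H2-Eb1 with 41.4 ± 20.5 TPM. H2-Ob, a restraining chain, was thus at a higher mean level per length than H2-Aa, a chain of the presenting molecule. The order was not firm everywhere: Cd74 exceeded H2-Ab1 in 7 of 10 libraries, and H2-Ob exceeded H2-Aa in 7 of 10. Below them stood H2-Oa with 24.4 ± 4.56 TPM, H2-DMb2 with 16.7 ± 6.16, H2-DMa with 7.63 ± 2.67 and H2-DMb1 with 4.35 ± 2.36 TPM. Ciita was lowest with 1.01 ± 0.318 TPM, under H2-DMb1 in 10 of 10 libraries.

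**Figure D1:**
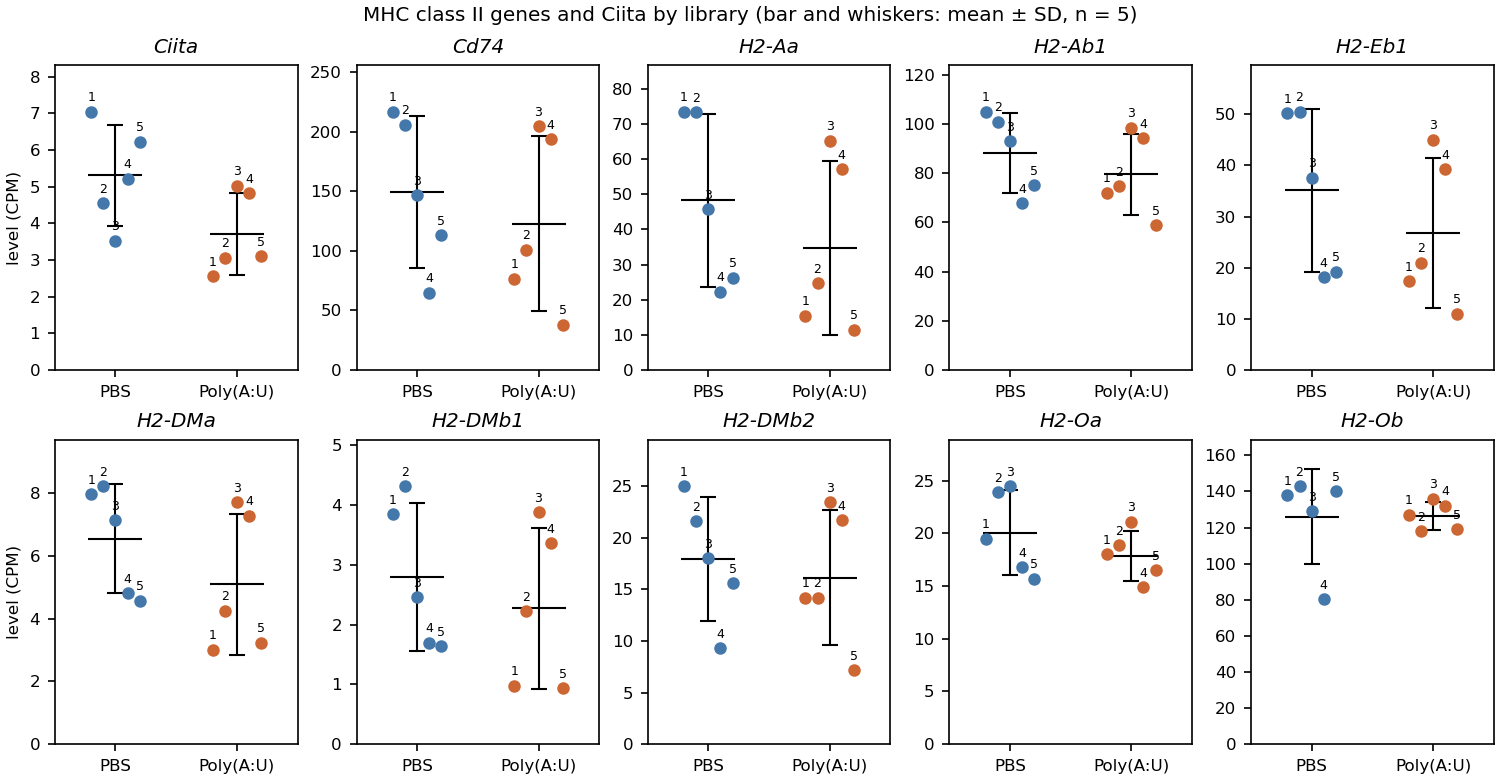
Level of each of the 10 genes in CPM (vertical axis, linear and starting at 0, scaled per gene) in the 5 PBS and 5 Poly(A:U) libraries; points are libraries with their replicate number, and the bar with whiskers is the mean ± SD. For Cd74, PBS 1 and 2 and Poly(A:U) 3 and 4 lie between 194 and 217 CPM, and Poly(A:U) 5 lies lowest at 38.1 CPM.

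Ciita, the coactivator of the other genes (chr16:10480059-10528418, mm10), was at 7.04, 4.54, 3.52, 5.21 and 6.22 CPM in PBS libraries 1 to 5. Its level was 2.56, 3.06, 5.02, 4.82 and 3.10 CPM in Poly(A:U) libraries 1 to 5. PBS 1, PBS 4 and PBS 5 were above every treated library, while PBS 2 and PBS 3 lay among the treated ones, so the groups overlapped. The mean level was 5.30 ± 1.38 CPM in PBS and 3.71 ± 1.12 CPM in treated libraries (SD, n = 5 each). Poly(A:U) minus PBS, the log2 fold change was -0.54 ± 0.25 (SE; 95% interval -1.08 to -0.01), with an unadjusted p of 0.0461 and an adjusted p of 0.679 in edgeR's quasi-likelihood test with Benjamini-Hochberg adjustment over 13729 genes. These values rest on 46.0 to 144 estimated reads per library, the fewest after H2-DMb1.

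Nearly all reads of Ciita were assigned to transcripts that start in a single region of first exons. Ciita is known to be transcribed from alternative promoters, of which the most upstream is used in dendritic cells, an intermediate one in B cells, and the one nearest the coding exons after interferon-γ. The annotation places first exons in 3 regions, starting at 10480059 to 10480164, at 10488178 to 10488279 and at 10489746 to 10489783 on chromosome 16. Transcripts of the middle region held a mean of 88.3 estimated reads per library, against 1.59 for the upstream and 0.50 for the downstream region. These are reads of whole transcripts, and reads over the first exons were not counted apart. Only Ciita-201, of the middle region, reaches the gene's 3′ end at 10528418, while transcripts of the other regions end at 10526426 or before. Reads beyond that point can only be assigned to Ciita-201, so the values do not show which first exon was used. Its share of Ciita TPM was 97.0, 100, 93.4, 94.3 and 100% in PBS libraries 1 to 5, and 82.4, 93.7, 96.5, 100 and 75.9% in Poly(A:U) libraries 1 to 5. The lower shares in Poly(A:U) 1 and 5 stand on few reads: 2.00 downstream reads in Poly(A:U) 1, and 5.06 upstream and 2.00 downstream reads in Poly(A:U) 5. The groups did not differ beyond the spread (exact permutation test, two-sided, p = 0.198; 0.516 adjusted over 5 single-value tests), although without Poly(A:U) 4 the unadjusted exact p was 0.0476 with a difference of -9.80 percentage points. On estimated counts in place of TPM the difference was -1.80 points (exact p = 0.476, unadjusted).

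Cd74, the invariant chain (chromosome 18), varied far more than Ciita. PBS libraries 1 to 5 held 217, 206, 147, 64.9 and 113 CPM. Poly(A:U) libraries 1 to 5 held 76.7, 101, 205, 194 and 38.1 CPM. Each group thus contained both high and low libraries, and the range over all 10 libraries was 5.68-fold. The mean level was 149 ± 63.6 CPM in PBS and 123 ± 73.7 CPM in treated libraries (SD, n = 5 each). On the log2 scale the difference was -0.30 ± 0.49 (SE; adjusted p = 0.882, edgeR), and its 95% interval from -1.42 to 0.82 includes large changes in either direction.

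Cd74 also makes a longer protein form with an extra exon, whose product resembles a protease inhibitor domain. Transcripts of the longer form made up 4.94, 4.14, 5.68, 8.18 and 1.93% of the coding Cd74 TPM in PBS libraries 1 to 5. In Poly(A:U) libraries 1 to 5 the share was 3.62, 2.46, 3.60, 4.51 and 4.45%. PBS libraries held both the highest share (PBS 4) and the lowest (PBS 5). The mean share was 4.97 ± 2.28% in PBS and 3.73 ± 0.833% in Poly(A:U) libraries (exact permutation test, two-sided, p = 0.310; 0.516 adjusted over 5 tests). Without PBS 5 the difference was -2.01 percentage points with an unadjusted exact p of 0.0317.

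H2-Aa and H2-Ab1 encode the alpha and beta chain of the same I-A dimer, yet their levels spread differently. H2-Aa (chr17:34282744-34287823) was at 73.5, 73.4, 45.7, 22.3 and 26.3 CPM in PBS and at 15.4, 24.7, 65.2, 57.2 and 11.4 CPM in Poly(A:U) libraries 1 to 5. H2-Ab1 (chr17:34257689-34269419) was at 105, 101, 93.0, 67.8 and 75.1 CPM in PBS and at 72.1, 74.6, 98.5, 94.2 and 58.8 CPM in Poly(A:U) libraries. The same libraries were high and low for both genes, but the highest library exceeded the lowest 6.44-fold for H2-Aa and 1.79-fold for H2-Ab1. Mean levels of H2-Aa were 48.2 ± 24.7 CPM in PBS and 34.8 ± 24.7 CPM in treated libraries, with a log2 fold change of -0.50 ± 0.57 (SE; adjusted p = 0.821, edgeR). Mean levels of H2-Ab1 were 88.4 ± 16.3 and 79.6 ± 16.4 CPM, with a log2 fold change of -0.18 ± 0.16 (SE; adjusted p = 0.768, edgeR). The 95% interval of H2-Ab1, -0.51 to 0.16, was the narrower of the pair, since that of H2-Aa ran from -1.79 to 0.80.

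The ratio of H2-Aa to H2-Ab1 within a library, in TPM, does not depend on scaling between libraries. It was 0.707, 0.732, 0.482, 0.325 and 0.330 in PBS libraries 1 to 5 and 0.216, 0.325, 0.644, 0.595 and 0.193 in Poly(A:U) libraries 1 to 5. The alpha chain was below the beta chain in all 10 libraries, and furthest below it in Poly(A:U) 5 and Poly(A:U) 1. The mean ratio was 0.515 ± 0.197 in PBS and 0.395 ± 0.212 in Poly(A:U) libraries, and the groups did not differ beyond the spread (exact permutation test, two-sided, on log2 ratios, p = 0.294; 0.516 adjusted over 5 tests).

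H2-Eb1, the beta chain of I-E (chr17:34305867-34316674), followed H2-Aa. PBS libraries 1 to 5 were at 50.2, 50.5, 37.6, 18.1 and 19.2 CPM and Poly(A:U) libraries at 17.4, 21.0, 45.0, 39.3 and 11 CPM. Again PBS 1 to 3 and Poly(A:U) 3 and 4 stood above the others, a 4.58-fold range. The means were 35.1 ± 15.9 and 26.8 ± 14.6 CPM, with a log2 fold change of -0.42 ± 0.45 (SE; adjusted p = 0.807, edgeR). Most of its reads, 61.9 ± 4.95% (SD, n = 10), were assigned to a transcript annotated as subject to nonsense-mediated decay, and 21.6 ± 5.04% to protein-coding transcripts. H2 genes are highly polymorphic and the reads were quantified against the reference sequence, so levels and transcript shares may depend on the haplotype, which was not tested.

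The I-E alpha chain, listed in the annotation under the pseudogene symbol H2-Ea-ps, also had reads. PBS libraries were at 38.8, 36.0, 23.9, 7.37 and 12.4 CPM and Poly(A:U) libraries at 7.80, 10.4, 34.0, 28.4 and 5.29 CPM. The order of libraries was close to that of Cd74, and the log2 fold change was -0.49 ± 0.63 (SE; adjusted p = 0.843, edgeR). As background, the gene is silent in mice of the b haplotype, which the reference genome carries, and is expressed in several other haplotypes.

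The H2-M genes encode the peptide exchange factor, with H2-DMa for its alpha chain and H2-DMb1 and H2-DMb2 for alternative beta chains. H2-DMa (chr17:34119541-34139101) was at 7.96, 8.23, 7.14, 4.82 and 4.57 CPM in PBS and at 3.01, 4.25, 7.71, 7.28 and 3.24 CPM in Poly(A:U) libraries 1 to 5. H2-DMb2 (chr17:34143307-34151555) was at 25.0, 21.6, 18, 9.31 and 15.6 CPM in PBS and at 14.2, 14.2, 23.4, 21.7 and 7.18 CPM in Poly(A:U) libraries. H2-DMb1 (chr17:34153072-34160230) was at 3.85, 4.32, 2.46, 1.70 and 1.64 CPM in PBS and at 0.975, 2.22, 3.88, 3.36 and 0.937 CPM in Poly(A:U) libraries. All 3 genes were higher in PBS 1 and 2 and in Poly(A:U) 3 and 4 than in the other libraries of the same group. Their log2 fold changes were -0.39 ± 0.29 for H2-DMa, -0.17 ± 0.32 for H2-DMb2 and -0.32 ± 0.44 for H2-DMb1 (SE), with adjusted p-values of 0.731, 0.903 and 0.851 (edgeR). H2-DMb1 and H2-DMb2 are near-identical neighbours, so reads may have been split between them and their separate levels are uncertain. H2-DMb1 rests on 17.5 to 81.9 estimated reads per library, 52.9 ± 27.9% of them on a short noncoding transcript, so its TPM is the least certain of the group.

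H2-Oa and H2-Ob, the chains of the H2-M inhibitor, had the smallest coefficients of variation of the 10 genes, 17.4 and 14.3% over all libraries. H2-Oa (chr17:34092340-34095234) was at 19.5, 23.9, 24.5, 16.8 and 15.7 CPM in PBS and at 18, 18.9, 21.1, 14.9 and 16.5 CPM in Poly(A:U) libraries 1 to 5. H2-Ob (chr17:34238903-34254414) was at 138, 143, 129, 80.4 and 140 CPM in PBS and at 127, 118, 136, 132 and 119 CPM in Poly(A:U) libraries. The highest library exceeded the lowest 1.65-fold for H2-Oa and 1.78-fold for H2-Ob, and for H2-Ob this span came from PBS 4 alone. Poly(A:U) 5, lowest for Cd74 and for each classical chain, was at 119 CPM for H2-Ob, within the span of the other treated libraries. Their log2 fold changes were -0.19 ± 0.15 for H2-Oa (SE; 95% interval -0.51 to 0.13; adjusted p = 0.736) and -0.02 ± 0.13 for H2-Ob (SE; -0.30 to 0.26; adjusted p = 0.978, both edgeR). No direction can be given for H2-Ob, whose value turned positive when any of PBS 1, PBS 2, PBS 5 or Poly(A:U) 5 was left out (0.01, 0.03, 0.01 and 0.0036) and with library totals as the only scaling (0.0012).

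The balance of inhibitor and exchange factor, the summed TPM of H2-Oa and H2-Ob over that of the 3 H2-M genes, was 2.52, 2.78, 3.28, 3.71 and 4.32 in PBS libraries 1 to 5. Poly(A:U) libraries 1 to 5 were at 4.76, 3.73, 2.71, 2.69 and 7.41. The inhibitor chains were thus above the exchange factor chains in every library, most in Poly(A:U) 5. The mean ratio was 3.32 ± 0.724 in PBS and 4.26 ± 1.96 in Poly(A:U) libraries (exact permutation test, two-sided, on log2 ratios, p = 0.413; 0.516 adjusted over 5 tests). The ratio of Cd74 to the summed TPM of the 3 classical chains was 0.842, 0.824, 0.729, 0.525 and 0.822 in PBS and 0.640, 0.739, 0.861, 0.896 and 0.417 in Poly(A:U) libraries. It was lowest in Poly(A:U) 5 and PBS 4, and the groups overlapped almost entirely (exact permutation test, two-sided, p = 0.659, also after adjustment). The smallest p that 5 against 5 libraries allow in this test is 0.00794.

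**Figure D2:**
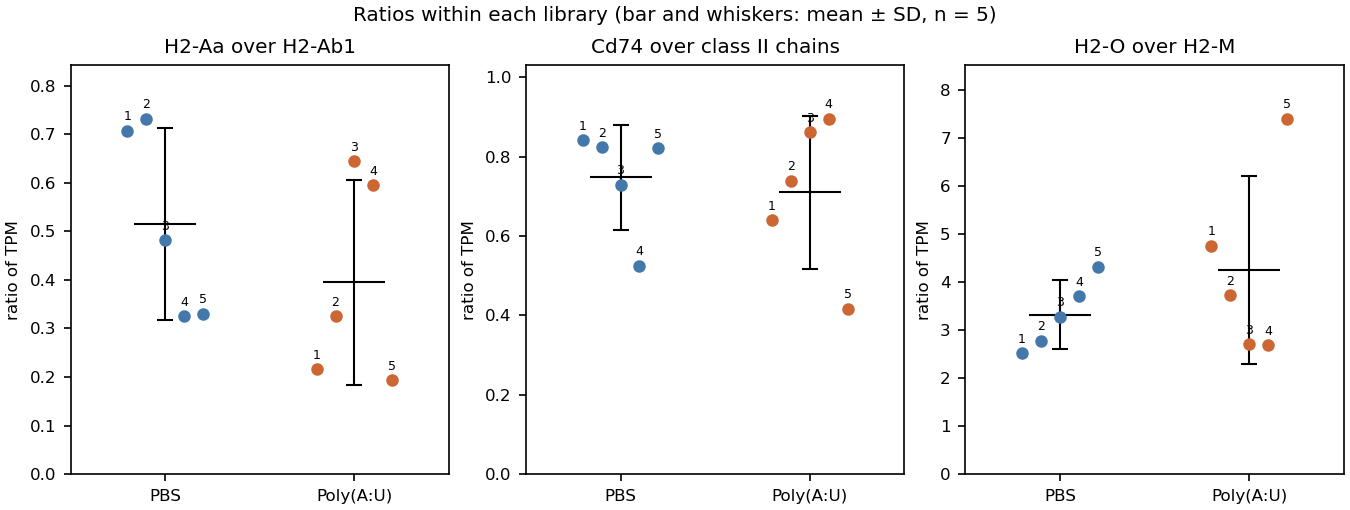
Ratios of summed TPM within each library (vertical axes, linear and starting at 0) for H2-Aa over H2-Ab1, Cd74 over the 3 classical chains, and H2-O over H2-M; points are libraries with their replicate number, and bars with whiskers are the mean ± SD, n = 5. Poly(A:U) 5 lies at the extreme of all 3 panels, at 0.193, 0.417 and 7.41.

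Against the rest of the transcriptome, the class II genes did not stand out in the comparison of Poly(A:U) with PBS. At an adjusted p below 0.05, edgeR called 0 of the 10 genes, and it called 0% of the 13729 genes tested. At an unadjusted p below 0.05, 1 of the 10 (Ciita, lower) passed, where 7.30% of all genes passed in either direction and 3.19% in the negative direction. DESeq2 called 0 of the 10 and 0.0947% of all genes; limma voom with quality weights called 0 of the 10 and 6.79% of all genes. No class II gene had groups that did not overlap, against 0.947% of all genes. All 10 log2 fold changes were negative, with a median of -0.31, where 50.6% of all genes were negative with a median of -0.00. These genes move together, so that count is not 10 separate observations, and in bulk samples fewer cells of a type and less RNA per cell cannot be told apart.

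In the fit with treatment as the only term, that common direction depended on PBS 1 to 3, the libraries with their own name start. Without them, 9 of the 10 log2 fold changes were positive, with a median of 0.26: Cd74 was at 0.44, H2-Aa and H2-Eb1 at 0.49 each, and H2-Ab1 at 0.13. Only Ciita kept a negative value, -0.65 ± 0.32 (SE; adjusted p = 0.817, edgeR). Libraries that share a name part can also be set side by side. Poly(A:U) 5 was below PBS 4 for 9 of the 10 genes, with ratios of 0.512 for H2-Aa, 0.587 for Cd74 and 0.595 for Ciita, and 1.48 for H2-Ob as the exception. Poly(A:U) 1 was below PBS 5 for 9 of the 10, with 0.412 for Ciita, 0.587 for H2-Aa and 0.680 for Cd74, and 1.14 for H2-Oa as the exception. Each is a single pair of animals, and Poly(A:U) 4 was likewise below Poly(A:U) 3, of the same treatment, for 10 of the 10 genes (0.706 to 0.974). With a term for every shared name part, an alternative added after the data were seen that leaves treatment to those pairs, the log2 fold change was -1.06 ± 0.34 for Ciita (SE; unadjusted p = 0.0123, adjusted p = 0.804, edgeR) and -0.71 ± 0.18 for Cd74 (unadjusted p = 0.00292, adjusted p = 0.728). Over all genes, 791 of 13729 had an unadjusted p below 0.05 in that edgeR fit, and 0 were called. H2-Aa, H2-DMa and H2-Eb1 were also below 0.05 unadjusted, while H2-Ab1, H2-DMb1, H2-DMb2, H2-Oa and H2-Ob were not. In that fit 8 of the 10 log2 fold changes were negative, with a median of -0.56, while H2-Oa (0.03) and H2-Ob (0.16) were positive. Treatment and name start cannot be told apart for PBS 1 to 3.

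**Figure D3:**
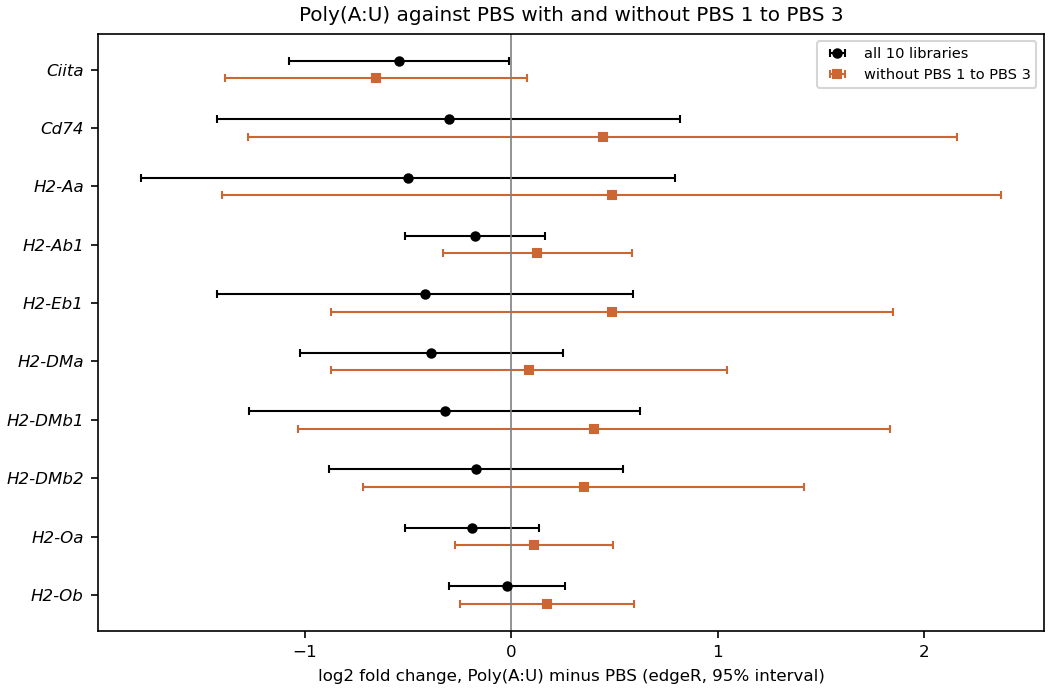
Log2 fold change, Poly(A:U) minus PBS, of each gene with its 95% interval from edgeR (horizontal axis), for all 10 libraries (circles) and without PBS 1 to 3 (squares). All circles lie below 0, and 9 of the 10 squares lie above 0; the exception is Ciita at -0.65.

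The variation between libraries was shared by most of the class II genes. PBS 1 and Poly(A:U) 3 were among the 4 highest libraries for 10 of the 10 genes, and PBS 2 for 9. Poly(A:U) 5 was among the 2 lowest for 7 and Poly(A:U) 1 for 5. After these values had been seen, each gene was set against Cd74 on log2(CPM + 0.5) over the 10 libraries. Pearson's r was 0.97 for H2-Aa, 0.98 for H2-Ab1, 0.96 for H2-Eb1, 0.90 for H2-DMa, 0.92 for H2-DMb1 and 0.98 for H2-DMb2, with Spearman's rho between 0.89 and 1.00 and unadjusted permutation p-values between 1.00e-05, the smallest the resamples can give, and 0.001. Without Poly(A:U) 5 and PBS 4, the libraries farthest from the median of Cd74, r for these 6 genes lay between 0.96 and 0.99. H2-Ob (r = 0.60, rho = 0.79) and H2-Oa (r = 0.45, rho = 0.48) followed Cd74 less closely. Their unadjusted permutation p-values were 0.0618 and 0.193 for r, and 0.00889 and 0.166 for rho. Whether these coefficients differ from those of the other genes was not tested.

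**Figure D4:**
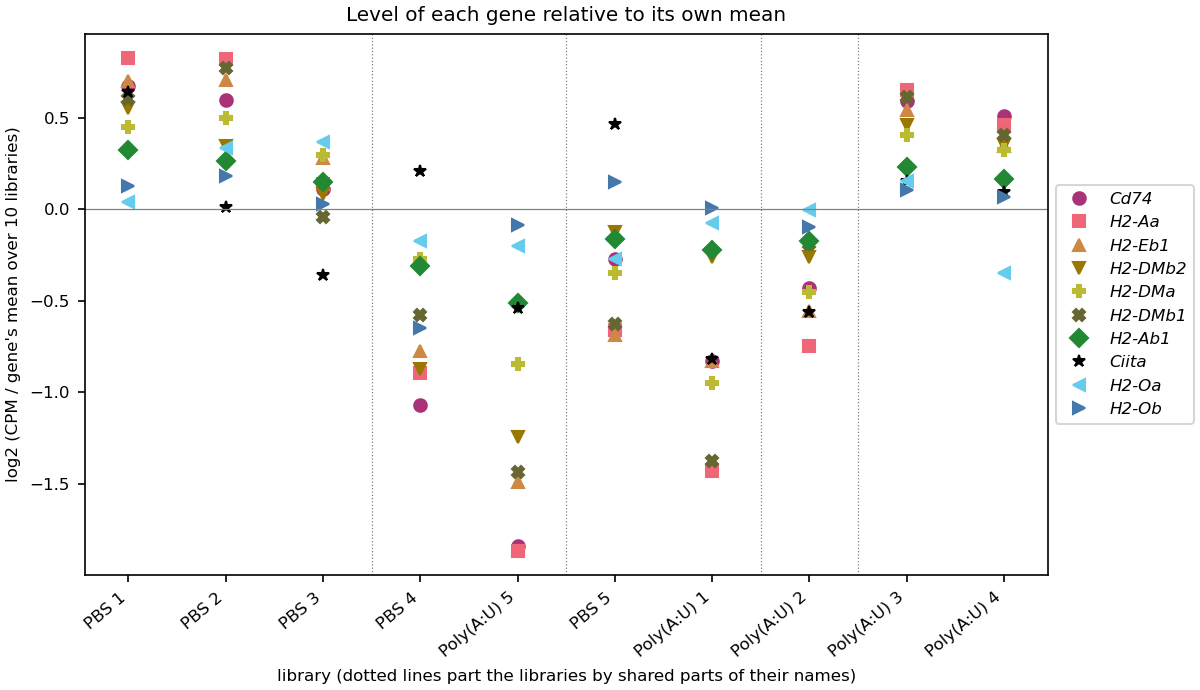
Level of each gene relative to its own mean over 10 libraries (vertical axis, log2), with libraries ordered and parted by dotted lines according to shared parts of their names (horizontal axis). Markers for Cd74, H2-Aa, H2-Eb1 and the H2-M genes spread widely, while H2-Oa and H2-Ob stay near 0 in most libraries. H2-Ob falls out of that band in PBS 4. H2-Ab1 also spans a narrow range, 1.79-fold between its highest and lowest library, beside 1.78-fold for H2-Ob and 1.65-fold for H2-Oa.

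Ciita itself did not follow this pattern closely. PBS 4 held its rank 3 of 10 libraries and PBS 5 its rank 2, where Cd74 had ranks 9 and 6. Over the 10 libraries, Pearson's r between Ciita and each of the other 9 genes lay between -0.11 (H2-Oa) and 0.62 (H2-DMa), and Spearman's rho between -0.12 and 0.59. None of the 9 relations passed a two-sided permutation test (unadjusted p between 0.0617 and 0.799 for r; adjusted over the 9 between 0.222 and 0.799). Without Poly(A:U) 1 and PBS 1, the libraries farthest from the median of Ciita, r lay between -0.28 and 0.37. The low r of H2-Ob with Ciita, 0.11, depended on PBS 4, without which it was 0.79 (unadjusted permutation p = 0.0138). Ciita had few reads, and the part of counting error in these coefficients was not tested.

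Genes for the proteins that assemble on class II promoters did not share the range of Cd74. Of 10 listed genes (RFX and NF-Y subunits, Creb1 and histone acetyltransferases), edgeR and DESeq2 called none. Limma voom called Crebbp and Ep300 as lower, where it called 6.79% of all genes in either direction. In edgeR 5 log2 fold changes were positive and 5 negative, and their median was 0.03. Rfx5, a subunit of the X box complex, spanned 37.7 to 53.2 CPM over all libraries, a 1.41-fold range beside the 5.68-fold range of Cd74. The RFX and NF-Y subunits spanned 1.30-fold to 1.41-fold, and the acetyltransferase genes Crebbp, Kat2b and Ep300 spanned 1.87-fold, 1.92-fold and 2.62-fold. Kat2b, an acetyltransferase, was at 26.1 ± 4.68 CPM in PBS and 33.4 ± 4.99 CPM in treated libraries (log2 fold change 0.33 ± 0.13, SE; adjusted p = 0.677, edgeR). Nfyb, a Y box binding subunit, was at 66.3 ± 8.04 and 79.4 ± 3.89 CPM (0.23 ± 0.09; adjusted p = 0.677), and without PBS 1 to 3 its log2 fold change was 0.063. Rfxap, also an RFX subunit, had no overlap between groups, 20.0 to 24 CPM in PBS and 24.5 to 26 CPM in treated libraries, but its adjusted p was 0.695.

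Of 12 genes that act upstream of Ciita, among them the interferon-γ receptor chains, Irf1 and Pax5, edgeR and DESeq2 called none. Limma voom called 5 as lower, Irf2 and Pax5 among them, where it called 6.79% of all genes in either direction. In edgeR 8 had negative log2 fold changes, and the median was -0.20. Ifngr2, a chain of the interferon-γ receptor, was at 90.0 ± 7.92 CPM in PBS and 108 ± 5.52 CPM in treated libraries (0.24 ± 0.08, SE; adjusted p = 0.677, edgeR). Irf2, an interferon regulatory factor, was at 166 ± 28.0 and 143 ± 10 CPM (-0.24 ± 0.11; adjusted p = 0.686); PBS 1 to 3 held 181, 191 and 183 CPM, and without them its log2 fold change was 0.03.

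Among genes for endosomal processing, for turnover and of the surrounding region, edgeR and DESeq2 called none. Limma voom called Cd63 and Tap1 as lower (adjusted p = 0.0348 and 0.0287) and March8, a ubiquitin ligase, as higher. It called 6.79% of all genes. Of 11 processing genes 6 were negative with a median of -0.02; cathepsin S (Ctss), which trims the invariant chain, was at 83.8 ± 8.73 CPM in PBS and 73.3 ± 7.41 CPM in treated libraries (-0.22 ± 0.10, SE; adjusted p = 0.677, edgeR), and cathepsin D (Ctsd) was at 126 ± 16.7 and 114 ± 7.53 CPM (adjusted p = 0.695). Of 8 turnover genes and membrane partners 5 were negative with a median of -0.13. The tetraspanin Cd63 was at 1.69 ± 1.19 and 0.489 ± 0.145 CPM (-1.80 ± 0.49; adjusted p = 0.677), and Cd9 at 5.50 ± 8.84 and 1.04 ± 0.732 CPM (-2.45 ± 0.97; adjusted p = 0.677). The PBS values of Cd9 were set by PBS 4, at 21.3 CPM, where the other PBS libraries held 0.895 to 2.08 CPM. All 8 tested genes of the class II region outside the group were negative with a median of -0.13. Tap1, a subunit of the class I peptide transporter encoded there, had no overlap between groups, 128 to 171 CPM in PBS and 106 to 123 CPM in treated libraries (-0.36 ± 0.09, SE; adjusted p = 0.677, edgeR). Without PBS 1 to 3 the log2 fold change was -0.19 for Tap1 and -0.10 for Ctss, and with a term for every name part it was -0.14 for Tap1. Brd2, a bromodomain gene, was at 438 ± 30.6 and 408 ± 36.6 CPM (adjusted p = 0.70).

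Within these lists, Cd83 and March1 had library patterns near that of Cd74. Both act on class II at the surface: Cd83 stabilises it, and the ubiquitin ligase March1 removes it. Cd83 was at 4.30, 3.30, 2.72, 2.70 and 1.56 CPM in PBS and at 1.17, 1.73, 4.12, 3.42 and 0.867 CPM in Poly(A:U) libraries 1 to 5. March1 was at 4.59, 3.42, 3.47, 2.41 and 3.20 CPM in PBS and at 2.12, 3.06, 4.45, 4.65 and 1.69 CPM in Poly(A:U) libraries. They were singled out after their values were seen, and neither was called (adjusted p = 0.803 and 0.926, edgeR).

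Markers of other cells that carry class II were measured in the same libraries. Of 10 dendritic cell markers 7, among them Zbtb46, Xcr1, Clec9a and Siglech, were under 1 CPM in every library, and none was at 0 in all of them; their sum was 20.8 to 33.0 CPM in PBS and 18.8 to 22.8 CPM in treated libraries, mostly from Ccr7. The 11 macrophage markers summed to 137, 167, 143, 200 and 43.7 CPM in PBS and to 40.8 to 61.5 CPM in treated libraries. Lyz2 alone held 107, 141, 116, 47.7 and 17.5 CPM of the PBS sums, so those of PBS 1 to 3 came mostly from this gene. In treated libraries Lyz2 held 16.1 to 44.9 CPM. PBS 4 was highest for the macrophage sum and among the lowest for Cd74. The 10 mature B cell markers summed to 661 to 1142 CPM in PBS and to 769 to 995 CPM in treated libraries. The 9 neutrophil markers summed to 686, 1032 and 872 CPM in PBS 1 to 3, to 51.1 and 47.9 CPM in PBS 4 and 5, and to 29.4 to 260 CPM in treated libraries. The 7 erythroid markers ran the other way, with 93.1, 295 and 216 CPM in PBS 1 to 3, 1701 and 7664 CPM in PBS 4 and 5, and 956 to 8220 CPM in treated libraries. PBS 1 to 3, without which most class II genes turned positive, thus stood apart from the other PBS libraries in both sums. T cell markers, 8 genes, summed to 23.3 to 221 CPM in PBS and 20.8 to 39.9 CPM in treated libraries. All 9 tested macrophage and all 7 tested neutrophil markers had negative log2 fold changes, with medians of -1.52 and -2.19. For C1qa, C1qb, C1qc, Adgre1 and Vcam1, the PBS mean was set by PBS 4. C1qa held 32.5 CPM there, 0.728 to 2.20 CPM in the other PBS libraries and 0.728 to 4.29 CPM in treated libraries. Lyz2 and Mpeg1 were instead above every treated library in each of PBS 1 to 4. EdgeR called no marker. DESeq2 called the macrophage marker Mpeg1 as lower, where it called 0.0947% of all genes. Limma voom called Mpeg1, 4 of 12 B cell precursor markers and 1 of 10 mature B cell markers, where it called 6.79% of all genes. The part of such cells in the class II levels was not tested.

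The genes whose pattern over the 10 libraries was most like that of H2-Ab1, among 9405 tested genes whose mean reached 5 CPM, were Fcer2a (r = 0.952), Fbp1 (0.946), Ncf1 (0.938), Dera (0.918) and Slfn2 (0.917). Fcer2a encodes CD23, the low-affinity IgE receptor of mature B cells, and stood at 19.2, 16.4, 13.8, 3.29 and 8.06 CPM in PBS and at 7.47, 8.51, 16.0, 16.8 and 3.97 CPM in Poly(A:U) libraries 1 to 5. It was high in the same libraries as Cd74, where its r was 0.948. Not every mature B cell marker shared this order of libraries. Cxcr5 rose from 53.8 CPM in PBS 1 to 82.5 CPM in Poly(A:U) 5, the library lowest for Cd74. Tnfrsf13c likewise rose from 121 to 155 CPM between these libraries. The remaining markers of that list were lower in Poly(A:U) 5 than in PBS 1, which compares these libraries only. Ighd held 116 and 122 CPM in Poly(A:U) 1 and 2, and 93.6 and 90.0 CPM in Poly(A:U) 3 and 4, where Cd74 was higher. Cd22 was likewise higher in Poly(A:U) 1 and 2. Cr2, Ccr6, Cd40 and Ms4a1, like Fcer2a, were higher in Poly(A:U) 3 and 4. Fcrla and Ms4a1 were highest in PBS 5, at 314 and 173 CPM. Whether the markers as a group followed class II was not tested. Ncf1, a subunit of the phagocyte NADPH oxidase that B cells also express, spanned 3.70 to 19.0 CPM, and Fbp1, a gluconeogenic enzyme, 9.03 to 21.1 CPM. The genes most like Ciita were others: Myo1e (r = 0.900), Sorl1 (0.842), Tesk2 (0.823), Lrsam1 (0.820) and Ik (0.818). Myo1e, an unconventional myosin, was at 17.1, 15.6, 8.26, 12.8 and 17.2 CPM in PBS and at 8.80, 8.37, 15.7, 14 and 10.3 CPM in Poly(A:U) libraries. These are the highest of 9405 coefficients over 10 libraries and are given as a description only.

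**Figure D5:**
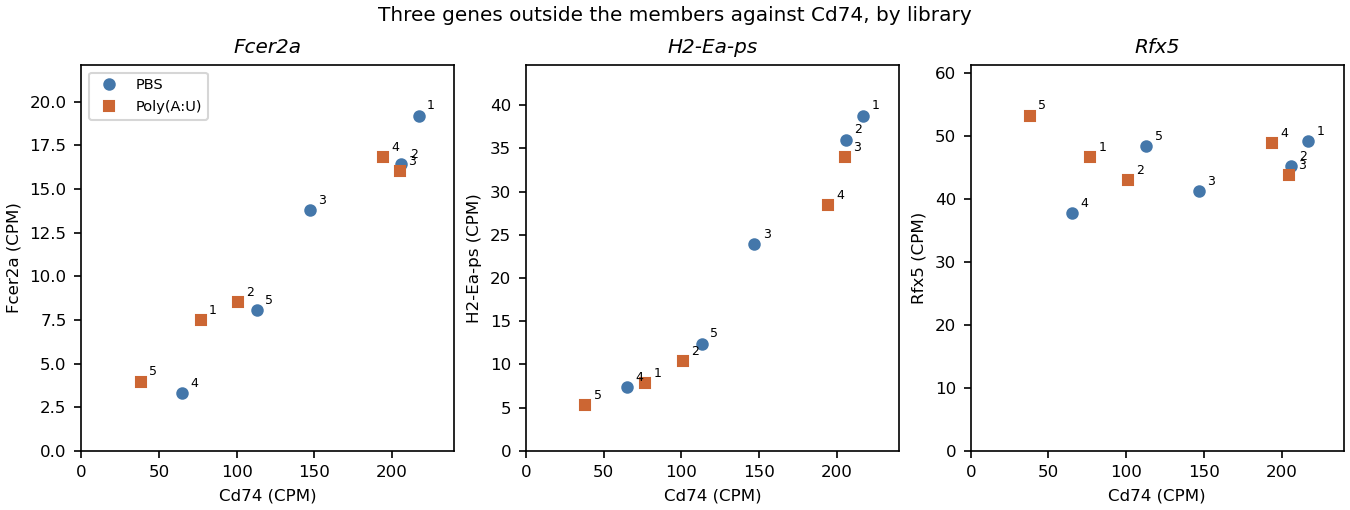
CPM of Fcer2a, H2-Ea-ps and Rfx5 (vertical axes, linear and starting at 0) against CPM of Cd74 (horizontal axis) in the 5 PBS (circles) and 5 Poly(A:U) libraries (squares), numbered by replicate. Fcer2a and H2-Ea-ps are lowest in the libraries with the least Cd74 and highest in PBS 1, while Rfx5 stays between 37.7 and 53.2 CPM throughout.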

How the data were processed

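The authors deposited estimated counts of reads per transcript, with TPM, for each of 10 libraries, per the file headers. The authors' deposited table of the series holds a normalized signal named as edgeR-normalized CPM and was used as an alternative only. DRAGEN, edgeR 3.38.4 and mm10 are named, per the submitters' processing notes; for annotation release, strand use and counting settings the entry is "not given in the sources used here", so overlapping and antisense genes cannot be separated. Transcripts were assigned to genes with GENCODE M21, which left out 538 of 142333. Gene sums were rounded and tested with edgeR 4.0.16 in R 4.3.3 (TMM factors, filterByExpr at a minimum count of 10, robust quasi-likelihood fit, Benjamini-Hochberg over 13729 genes, threshold 0.05). DESeq2 1.42.0 and limma 3.58.1 were alternatives, and the fits were tested on simulated data. Ratios and shares used exact permutation of 252 splits, and correlations 100000 resamples. CPM totals are all reads in genes. Named list genes are the 2 with the smallest unadjusted p of each list, and genes like H2-Ab1 or Ciita the 5 highest correlations. The genes and lists were chosen with earlier results of these data known.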

Additional observations from a re-analysis of the deposited data

Results flagged for a closer look

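H2-Ob in PBS 4 lay far from the other PBS libraries: its level was 80.4 CPM where the others were between 129 and 143 CPM, and the gap to the nearest was 0.776 of the group's whole range, above Dixon's 95% value of 0.71 for 5 samples. It was the only such value among 30 groups checked, and chance gives about 1 in 20. H2-Ob in Poly(A:U) libraries lay between 118 and 136 CPM. PBS 4 also had the highest sum of macrophage (200 CPM) and T cell markers (221 CPM) and the lowest sum of B cell precursor markers (9046 CPM); the part of these in the value was not tested.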

How the results depend on the processing

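None of the 10 genes was called under any of the 21 alternatives, of which the filter of 10 CPM tested 7. Over all genes DESeq2 called 13 and limma voom 932, 10 of them list genes, among them Cd63, Irf2, Pax5 and Tap1; leaving out 1 library gave 0 to 18, the 18 without PBS 5. Without PBS 1 to 3, log2 fold changes turned to 0.44 for Cd74, 0.49 for H2-Aa and H2-Eb1, 0.13 for H2-Ab1, 0.086 for H2-DMa, 0.40 for H2-DMb1, 0.35 for H2-DMb2, 0.11 for H2-Oa, 0.17 for H2-Ob and 0.032 for Irf2; with a term for the name start they were 0.44, 0.48 for both chains, 0.12, 0.081, 0.40, 0.35, 0.10, 0.17 and 0.028. A term for every name part turned H2-Oa to 0.030, H2-Ob to 0.16 and Irf2 to 0.10. H2-Ob turned to 0.0012 with library totals only and 0.044 with the authors' CPM. Leaving out each library gave -0.56 to -0.08 for Cd74, -0.85 to -0.28 for H2-Aa, -0.26 to -0.084 for H2-Ab1, -0.68 to -0.22 for H2-Eb1, -0.58 to -0.25 for H2-DMa, -0.60 to -0.11 for H2-DMb1, -0.34 to 0.014 for H2-DMb2, -0.28 to -0.11 for H2-Oa and -0.14 to 0.031 for H2-Ob; Poly(A:U) 3 gave the lowest value for the first 7 of these and Poly(A:U) 5 the highest for Cd74, H2-Aa, H2-Ab1, H2-Eb1 and H2-DMb2. Log2 ratio differences without PBS 1 to 3 were -0.021 (H2-O to H2-M), 0.063 (Cd74 to chains) and 0.094 (H2-Aa to H2-Ab1); leaving out each library gave 0.048 (without Poly(A:U) 5) to 0.41 for H2-O to H2-M, -0.23 to 0.075 for Cd74 to chains, -2.01 to -0.44 points for the Cd74 long form and -9.80 to -3.77 points for the Ciita share, which was -1.80 points on estimated counts. The r of H2-Ob with Ciita was -0.025 without PBS 1 to 3 and -0.004 to 0.79 leaving out each library; that of H2-Oa was -0.23 to 0.034. The causes were not tested. Ciita stayed negative in the 20 alternatives that tested it.

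Replicate numbers do not pair the samples: same-numbered libraries had correlations of their deviations of 0.02, 0.14, 0.14, -0.13 and -0.18. With a replicate block 0 genes were called, 9 of the 10 class II genes were negative (median -0.44), and H2-Ob was at 0.0032. Estimated reads under 100 for Ciita and H2-DMb1 in most libraries limit the precision of their changes.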
